A study of Mus musculus with 6 samples.

Results

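The Fc gamma receptors were followed in immune cells of the mouse brain through 6 genes, Fcgr1, Fcgr2b, Fcgr3, Fcgr4, Fcer1g and Fcgrt, out of 19848 genes in the deposited RNA table. They were chosen by name, as the 4 receptors for IgG, their shared signalling chain and the neonatal Fc receptor. Earlier results of these data were known when they were chosen. All 6 were in the table, and the antibody tag for CD64, the protein made from Fcgr1, was read in the same cells. The cells were enriched on a Percoll gradient from PBS-perfused whole brains of 24 female C57BL/6 mice and profiled by CITE-seq, which counts RNA and antibody tags in single cells. The 4 groups compared had 6 mice each. They were 12-week vehicle control mice, 12-week antibiotic-treated mice, 72-week vehicle control mice and 72-week antibiotic-treated mice, and antibiotics depleted the gut microbiota. The brains of 2 mice were combined into each pool, so each group had 3 pools, and the pool was the replicate. The sources used here name neither the drugs nor their doses and duration. Young pools ran in one 10x well and aged pools in another, so age and well cannot be told apart, and the arm cannot be told apart from the hashtags that marked it.

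Fc gamma receptors bind the constant part of IgG and let a phagocyte respond to antibody-coated targets. Fcgr1 (CD64, high affinity), Fcgr3 (CD16) and Fcgr4 are activating receptors that pair with the signalling chain encoded by Fcer1g, which carries an ITAM. Fcgr2b is the inhibitory receptor, whose ITIM recruits the phosphatase SHIP1. Fcgrt encodes the heavy chain of the neonatal Fc receptor, which pairs with beta-2 microglobulin and protects IgG from degradation inside the cell. In the brain, microglia and the macrophages of its borders are the cells best known to carry these receptors.

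In the GRCm38.p6 annotation of RefSeq, 4 of the 6 genes lay on chromosome 1 within 274 kb. Fcgr2b spanned chr1:170960558-170976071, Fcgr4 chr1:171018926-171029761, Fcgr3 chr1:171051169-171065915 and Fcer1g chr1:171229572-171234349. Fcgr1 lay at chr3:96282909-96293969 and Fcgrt at chr7:45092993-45103822. Fcgr2b and Fcgr4 are the neighbours that were both called in microglia below, and Fcgr1 is the gene with a protein readout. The 250 bases upstream of their RefSeq start sites are therefore shown, 5′ to 3′ on the gene's own strand, with every match to the searched motifs in capitals. The motifs were the interferon-gamma activated site TTCNNNGAA, a pair of GAAA half-sites with any 2 bases between them, as bound by interferon regulatory factors, and AGGAAGT, a core of the kind bound by the myeloid factor PU.1, each on both strands.
Fcgr2b, chr1:170976072-170976321, minus strand: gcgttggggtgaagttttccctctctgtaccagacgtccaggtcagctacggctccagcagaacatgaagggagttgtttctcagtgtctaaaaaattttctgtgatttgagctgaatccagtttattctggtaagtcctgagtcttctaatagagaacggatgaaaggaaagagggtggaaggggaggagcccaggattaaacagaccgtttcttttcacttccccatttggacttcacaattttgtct
Fcgr4, chr1:171018676-171018925, plus strand: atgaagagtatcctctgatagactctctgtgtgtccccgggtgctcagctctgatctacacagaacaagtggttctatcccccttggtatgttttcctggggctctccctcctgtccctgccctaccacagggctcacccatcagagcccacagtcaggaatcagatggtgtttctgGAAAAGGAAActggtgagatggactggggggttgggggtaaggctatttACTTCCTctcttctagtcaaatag
Fcgr1, chr3:96293970-96294219, minus strand: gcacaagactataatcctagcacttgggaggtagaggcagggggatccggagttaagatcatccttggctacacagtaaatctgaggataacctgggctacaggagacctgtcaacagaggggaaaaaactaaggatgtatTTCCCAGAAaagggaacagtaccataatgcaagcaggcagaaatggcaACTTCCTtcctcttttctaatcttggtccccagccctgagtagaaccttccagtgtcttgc
The Fcgr4 window held GAAAAGGAAA at 73 to 64 bases before the start and ACTTCCT, the reverse complement of AGGAAGT, at 24 to 18 bases before it. The Fcgr1 window held TTCCCAGAA at 109 to 101 bases and ACTTCCT at 61 to 55 bases before the start. None of these matches overlapped another motif, and the Fcgr2b window held no match. Of 32851 RefSeq promoter windows of this length, 7.02% held TTCNNNGAA, 2.98% held the GAAA pair and 7.69% held AGGAAGT. A match describes the letters only. The protein was read with the CD64 antibody, whose tag sequence in the deposited antibody list was as follows.
CD64 tag: agcaattaacgggag

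The tables held 13052 cells, called as singlets by the authors, with 760 to 1590 cells, 5745242 to 13742781 raw RNA UMIs and 428724 to 4052945 antibody tags per pool. Cell types are the authors' labels, and their defining markers were at high levels in the cells so named. Tmem119 and P2ry12 averaged 8.12 and 10.5 in microglia, Mrc1 and Pf4 averaged 6.01 and 8.48 in border-associated macrophages (BAM), S100a8 averaged 700 in the class Ly6C+Ly6G+ and Cd79a averaged 12.1 in B cells. The label ILCs covered cells with natural killer (NK) markers and cells with group 2 innate lymphoid (ILC2) markers. Of the patrolling monocyte markers, the class Ly6CLow had Nr4a1 at 5.57, Ace at 0.814 and Treml4 at 0.584. Nr4a1 was at 5.73 in Ly6CHigh and 5.99 in Ly6C+Ly6G+ cells, so it did not set Ly6CLow apart. Of the dendritic cell markers, Ly6CLow had Cd209a at 3.48, Flt3 at 0.286, Zbtb46 at 0.103 and Xcr1 at 0.0208. Of the monocyte markers it had Ccr2 at 3.12, Plac8 at 2.99, Chil3 at 1.36 and Ly6c2 at 0.429. There were 9403 microglia, 506 BAM, 634 Ly6CLow, 389 Ly6CHigh, 352 Ly6C+Ly6G+, 487 B cells, 330 ILCs, 728 CD8+ cells, 214 CD4+ cells and 9 NK cells. The aged Ly6CHigh cells were shallow, with a median of 951 UMIs against 13258 in the young, and 54.7% of them against 1.41% had under 2000 UMIs. The wells shared 59 barcodes, carried by 118 cells, and leaving out those cells changed none of the calls on the 6 genes or on the CD64 tag. RNA levels below are averages of the SCT value, a depth-corrected UMI number, over all cells with one label in one pool. They are given as mean ± SD over pools with at least 10 cells of the type, and each gene is compared with itself and not with other genes.

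Of the activating receptors, Fcgr3 was highest in microglia, at 6.35 ± 0.186 (SD, n = 12 pools), with a value above 0 in 99.1% of cells. BAM followed at 5.18 ± 0.549 (SD, n = 12), lower than microglia in 12 of 12 pools. A wide step led down to Ly6CHigh at 2.64 ± 0.331 (n = 11), Ly6C+Ly6G+ at 2.26 ± 0.228 (n = 9) and Ly6CLow at 1.97 ± 0.378 (n = 12), neighbours that did not differ beyond the sum of their SDs. B cells stood at 0.832 ± 0.365, ILCs at 0.568 ± 0.325, CD4+ cells at 0.336 ± 0.217 and CD8+ cells at 0.210 ± 0.0965.

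Fcgr1 had the same top pair, with 2.24 ± 0.112 (n = 12) in microglia and 2.12 ± 0.275 (n = 12) in BAM. These did not differ beyond their spread, and microglia were higher in 8 of 12 pools. Every microglial and BAM pool lay above every pool of the next type, Ly6CHigh, at 0.733 ± 0.208 (n = 11), beside Ly6CLow at 0.683 ± 0.269 (n = 12). B cells (0.330 ± 0.197), Ly6C+Ly6G+ cells (0.256 ± 0.211), ILCs (0.118 ± 0.131), CD8+ cells (0.0826 ± 0.0838) and CD4+ cells (0.0666 ± 0.0918) followed without a gap. In 7 pools at least 5 B cells had an Fcgr1 value and at least 5 had none. The median of their pool medians was 1158 raw UMIs in cells with a value and 6490 in cells without. In cells of at least 2000 UMIs the B cell level was 0.231 ± 0.168. CD8+ cells, which should lack the gene, had a value above 0 in 6.08% of cells, against 85.4% of microglia.

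Fcgr4 ran the other way, being highest in Ly6C+Ly6G+ cells at 0.974 ± 0.431 (n = 9) and in Ly6CLow cells at 0.740 ± 0.228 (n = 12). Ly6CHigh cells averaged 0.468 ± 0.359 and BAM 0.335 ± 0.158, and none of these neighbours differed beyond their spread. Microglia came sixth, after B cells (0.183 ± 0.136), at 0.101 ± 0.0309 (n = 12), with a value above 0 in 8.47% of cells against 1.83% of CD8+ cells. Microglia lay below Ly6CLow in 12 of 12 pools and below Ly6C+Ly6G+ in 9 of 9.

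The inhibitory receptor Fcgr2b was highest in BAM at 3.17 ± 0.480 (n = 12), above Ly6CLow at 2.03 ± 0.602 (n = 12) by more than the sum of their SDs. Microglia averaged 1.23 ± 0.135 (n = 12) and Ly6CHigh 1.17 ± 0.258 (n = 11), which did not differ beyond their spread. BAM lay above microglia in 12 of 12 pools, by 1.32 ± 0.261 on the log2 scale. B cells averaged 0.872 ± 0.342, Ly6C+Ly6G+ 0.502 ± 0.350, CD4+ cells 0.255 ± 0.249, ILCs 0.143 ± 0.0855 and CD8+ cells 0.108 ± 0.0869.

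The shared chain Fcer1g was found in nearly all cells of every myeloid class. It averaged 16.0 ± 4.30 in Ly6CHigh, 15.9 ± 1.01 in BAM, 15.3 ± 2.58 in Ly6C+Ly6G+, 15.0 ± 2.75 in Ly6CLow and 13.0 ± 0.652 in microglia, with a value above 0 in at least 99.5% of the cells of each. Neighbours in this order did not differ beyond the sum of their SDs, but within pools microglia lay below BAM in 12 of 12, by 0.29 ± 0.117 on the log2 scale, and above Ly6CLow in only 2 of 12. ILCs averaged 11.1 ± 4.96 (n = 11), with the widest spread of any type. B cells followed at 4.62 ± 1.30, CD4+ cells at 1.37 ± 0.691 and CD8+ cells at 1.36 ± 0.849. Of the CD8+ cells, 32.2% had a value above 0, and whether this share is background was not tested. The 9 cells labelled NK cells were too few to test. All of them had an Fcer1g value, while Fcgr1, Fcgr2b, Fcgr4 and Fcgrt were at 0 in all 9.

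The neonatal receptor Fcgrt was highest in BAM at 2.20 ± 0.530 (n = 12), with a value in 73.0% of cells. BAM exceeded Ly6CLow, at 0.919 ± 0.330, in 12 of 12 pools. Microglia averaged 0.742 ± 0.0706 (n = 12), below BAM in 12 of 12 pools by 1.48 ± 0.312 on the log2 scale. Ly6CHigh cells stood at 0.418 ± 0.238, B cells at 0.247 ± 0.111, Ly6C+Ly6G+ cells at 0.189 ± 0.253, CD4+ cells at 0.124 ± 0.170, CD8+ cells at 0.110 ± 0.0824 and ILCs at 0.0673 ± 0.0548. Because the labels were made from the same cells, these orders are descriptions with no test.

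**Figure D1:**
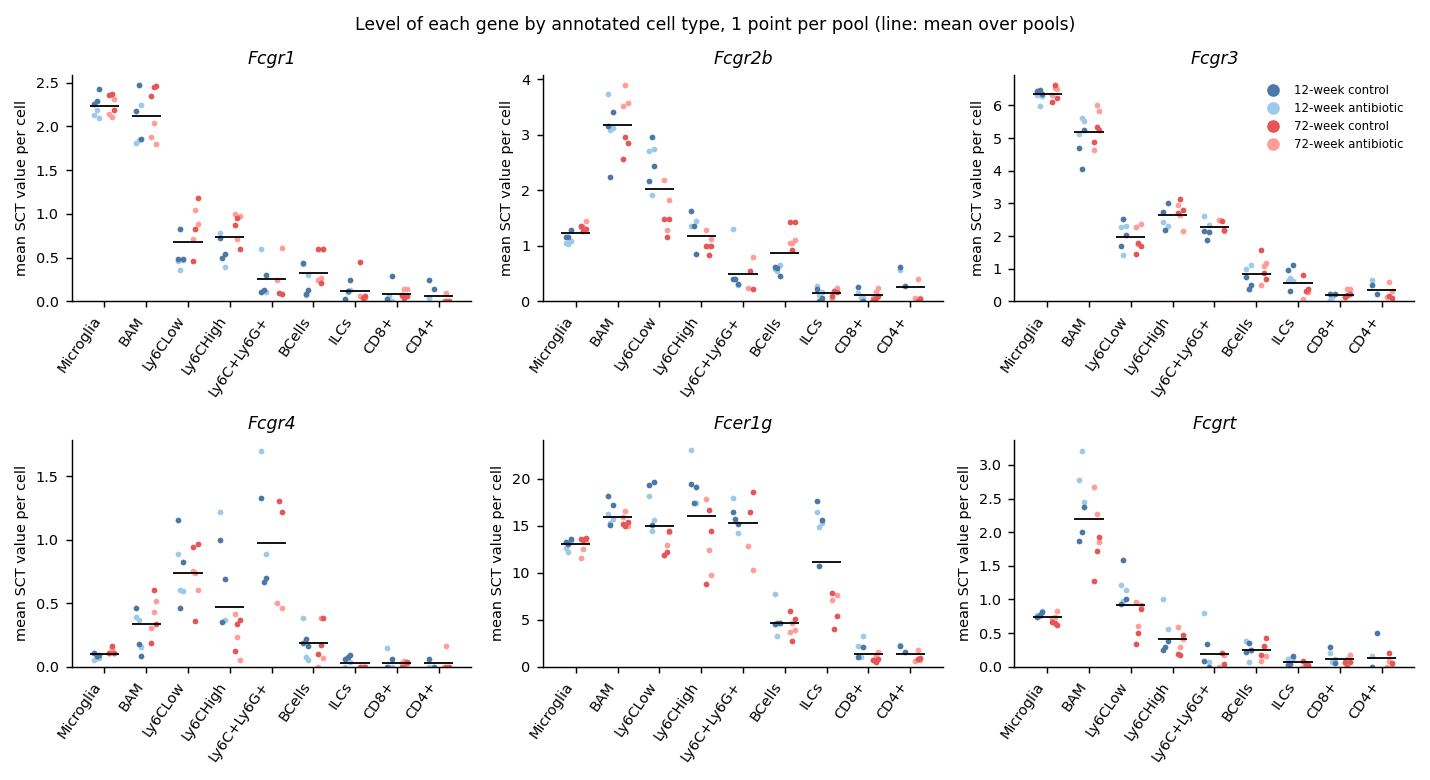
Mean SCT value per cell (vertical axis, linear) of each of the 6 genes in 9 annotated cell types, with 1 point per pool coloured by group and a line at the mean over pools. Fcgr1 and Fcgr3 were highest in microglia and BAM, Fcgr2b and Fcgrt in BAM, Fcgr4 in Ly6C+Ly6G+ cells, and the ILC points for Fcer1g ran from 4.00 to 17.6.

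The genes whose pattern was most like each member were taken by Pearson r of log2 levels over 98 type-by-pool values in 9 types, among 3567 genes. These points share pools and depth, so the values are descriptions. Fcgr1 was most like Csf1r (r = 0.93), the receptor for the macrophage growth factor CSF1, then Aif1 and Ctss. Fcgr3 was most like Sirpa (r = 0.93), Fcgr2b like Ctsh (r = 0.92), Fcgr4 like Lst1 (r = 0.87) and Fcgrt like Lifr (r = 0.88). Fcer1g was most like Tyrobp (r = 0.97), which encodes DAP12, another ITAM chain. Between members, the highest value was 0.89 for Fcgr1 with Fcgr3, and the lowest 0.42 for Fcgr1 with Fcgr4.

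Within microglia, most cells had a value above 0 for several receptors at once. The SCT value is corrected for depth, so a value above 0 need not be a counted UMI. In Ly6CHigh cells an Fcgr1 value was found in 68.8% of the shallow aged cells and in 33.1% of the young. Of microglia, 8.82% at 12 weeks and 13.4% at 72 weeks had under 2000 UMIs. A value above 0 for both Fcgr1 and Fcgr3 was found in 84.9% of cells, and 56.0% had both Fcgr1 and the inhibitory Fcgr2b. Cells with an Fcgr1 value had an Fcgr2b value more often than cells without, in 65.5% against 48.7%. The medians of their pool median depths were 7129 and 5964 UMIs. The highest cell-to-cell correlation was between Fcgr3 and its partner chain Fcer1g, with a mean r of 0.53 over pools (0.44 to 0.60), and it shares the depth of the cells. Cells with a value for all 4 receptors made up 2.74% to 3.2% of microglia in the 12-week antibiotic pools and 5.25% to 5.61% in the 12-week controls. They made up 5.65% to 9.04% in the 72-week controls and 6.51% to 8.46% in the 72-week antibiotic pools.

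In microglia, Fcgr2b and Fcgr4 rose with age in the antibiotic-treated mice, 2 of the 6 members, where 6.15% of 8759 genes were called. A gene was called at a Benjamini-Hochberg adjusted p under 0.05 over all genes of the fit, made with limma on log2(mean + 0.05), and every log2 difference below is on that scale. Fcgr2b was 1.04, 1.03 and 1.09 in the 12-week antibiotic pools and 1.34, 1.34 and 1.44 in the 72-week antibiotic pools. All 3 aged pools lay above all 3 young pools, a log2 difference of 0.36 (SE 0.06, adjusted p = 0.000862), or 1.29-fold. Fcgr4 was 0.0565, 0.0657 and 0.0658 against 0.106, 0.145 and 0.109, again without overlap. Its log2 difference was 0.59 (SE 0.12, adjusted p = 0.00557), a value that the added 0.05 lowers since the gene is scarce. The share of microglia with an Fcgr4 value was 5.0% ± 0.292 (SD, n = 3) in the young and 10.1% ± 1.52 (SD, n = 3) in the aged antibiotic pools.

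In the control mice the age differences of these 2 genes did not pass the test. Fcgr2b was 1.15, 1.15 and 1.28 in the 12-week controls and 1.36, 1.27 and 1.30 in the 72-week controls, which overlapped, with a log2 difference of 0.13 (SE 0.06, adjusted p = 0.362). Fcgr4 was 0.107, 0.0869 and 0.0908 against 0.109, 0.161 and 0.105, a log2 difference of 0.26 (SE 0.12, adjusted p = 0.360). None of the 6 members was called in controls, where 2.66% of genes were. For both genes the 3 young antibiotic pools were the lowest of the 12 pools. The difference between the arms' age steps is the same quantity as the difference between the ages' antibiotic effects. It was 0.23 for Fcgr2b (SE 0.08, adjusted p = 0.612) and 0.33 for Fcgr4 (SE 0.17, adjusted p = 0.783), so the arms were not shown to differ. In that contrast 0% of genes were called by limma, and 579 of 8759 had an unadjusted p under 0.05.

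Markers of other cells that carry these 2 receptors were read in the same microglial pools. All 5 neutrophil markers of the list were measured, and their sum was 0.759 to 7.53 in the 12-week and 0.357 to 1.26 in the 72-week antibiotic pools, ranges that overlapped with the higher values in the young. All 4 B cell markers summed to 1.41 to 1.60 against 1.54 to 1.68, nearly all of it Ighm, while Cd79a averaged 0.0196 over the 12 pools. All 3 patrolling monocyte markers summed to 0.779 to 1.339 against 1.343 to 1.406, without overlap and higher in the aged. Nearly all of this was Nr4a1, while Ace averaged 0.0101 and Treml4 0.00322. The 5 BAM markers, of the type highest in Fcgr2b, summed to 0.0342 to 0.0573 against 0.0381 to 0.0807, which overlapped, beside 11.7 to 28.2 in BAM pools. Of the first 3 lists, in these antibiotic pools only a B cell marker in aged pool 3 and a patrolling monocyte marker in aged pool 1 were at 0, and the part of these cells in the result was not tested. In CD8+ cells the share with an Fcgr4 value was 1.89% at 12 weeks and 1.77% at 72 weeks, and with an Fcgr2b value 5.66% and 7.23%, at median depths of 8287 and 6928 UMIs. Microglia with at least 2000 UMIs gave log2 differences of 0.44 for Fcgr2b (adjusted p = 4.02e-05) and 0.68 for Fcgr4 (adjusted p = 0.00142).

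Fcgr1, Fcgr3 and Fcer1g passed the test in no microglial contrast. Fcgr1 averaged 2.33 ± 0.0943 in 12-week controls, 2.14 ± 0.0427 in 12-week antibiotic, 2.31 ± 0.0996 in 72-week control and 2.19 ± 0.109 in 72-week antibiotic pools (SD, n = 3 each). Its age difference was -0.01 in controls, with a 95% interval of -0.13 to 0.11, and 0.03 in antibiotic pools (-0.09 to 0.15). Fcgr3 ran from 5.98 to 6.61 over the 12 pools and differed with age by -0.03 in controls (-0.15 to 0.09) and by 0.06 in antibiotic pools (-0.06 to 0.18). Fcer1g ran from 11.5 to 13.7, with age differences of 0.03 (-0.11 to 0.16) and -0.03 (-0.17 to 0.11).

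Fcgrt missed the threshold by little in controls. It was 0.733, 0.766 and 0.818 in the 12-week controls and 0.666, 0.648 and 0.616 in the 72-week controls, without overlap, a log2 difference of -0.25 (SE 0.07, adjusted p = 0.0605). The 72-week antibiotic pools, at 0.730, 0.732 and 0.834, lay above the 72-week controls, also without overlap, by 0.23 (SE 0.07, adjusted p = 0.0665). In the 12-week mice the antibiotic difference was 0.02 (-0.12 to 0.16), and the difference between the ages was 0.21 (SE 0.10, adjusted p = 0.728). Neither value passed the test, and both contain the 72-week control pools.

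**Figure D2:**
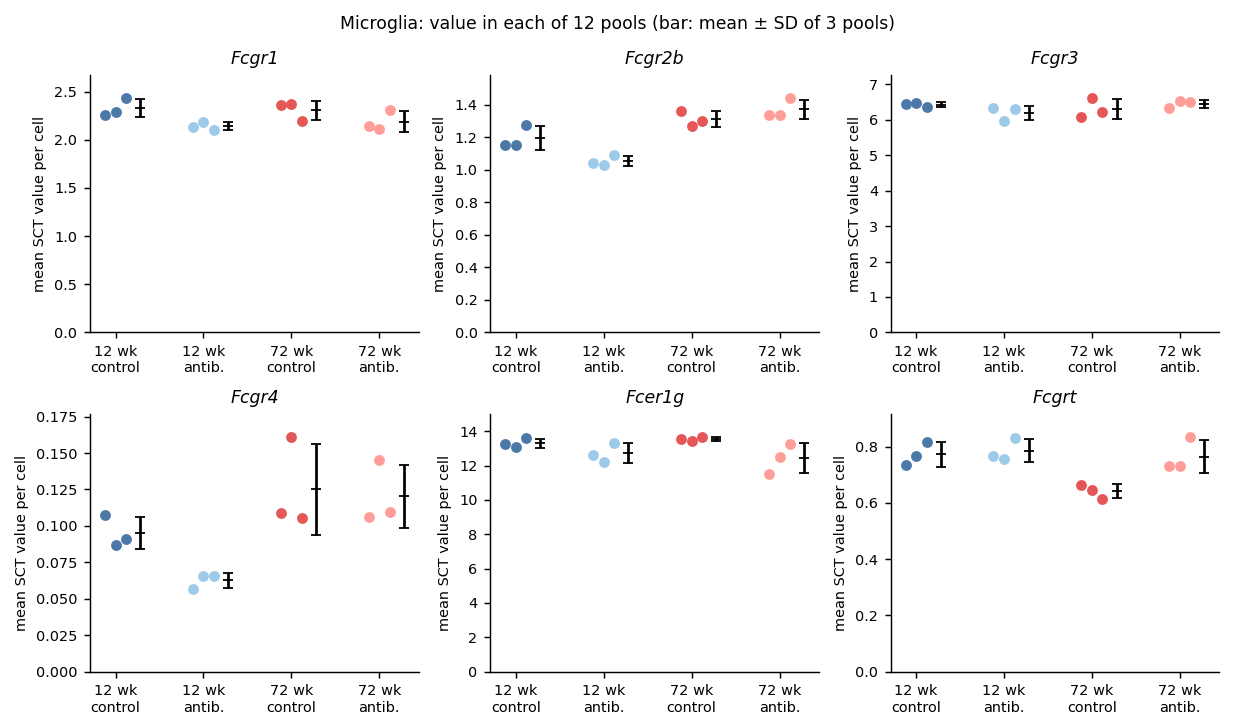
Mean SCT value per microglial cell (vertical axis, from 0) in each of the 12 pools, by group, with the mean ± SD of 3 pools beside the points. The 12-week antibiotic pools were the lowest for Fcgr2b (1.03 to 1.09) and Fcgr4 (0.0565 to 0.0658), and the 72-week controls the lowest for Fcgrt (0.616 to 0.666).

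Antibiotic treatment changed none of the 6 members in microglia by the test. In the 12-week mice limma called 0 of 6, where 0.137% of all genes were called. In the 72-week mice it called 0 of 6 with 3.23% of genes called, and for the mean of both ages 0 of 6 with 5.4%. Over these contrasts and the difference between ages, 8 of 24 tests had an unadjusted p under 0.05 and the lowest adjusted p was 0.0665. Members with an unadjusted p under 0.05 numbered 2, 1, 3 and 2 of 6 in the young, the aged, their mean and their difference. Over all genes, 928, 1610, 1852 and 579 of 8759 had one in the same contrasts. The clearest values in the young were those of Fcgr4, which differed by -0.36 (SE 0.12, adjusted p = 0.268), and of Fcgr2b, by -0.17 (SE 0.06, adjusted p = 0.291). Their pools did not overlap, but neither did those of Fcgr1 (-0.12, adjusted p = 0.489) and Fcgr3 (-0.05, adjusted p = 0.801). Lack of overlap between pools, here and for the other genes named, was not compared with that over all genes. In the aged, Fcgr4 and Fcgr2b differed by -0.03 (-0.28 to 0.22) and 0.06 (-0.06 to 0.19). No 95% interval of a member in the antibiotic contrasts in microglia reached below -0.61 or above 0.68.

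**Figure D3:**
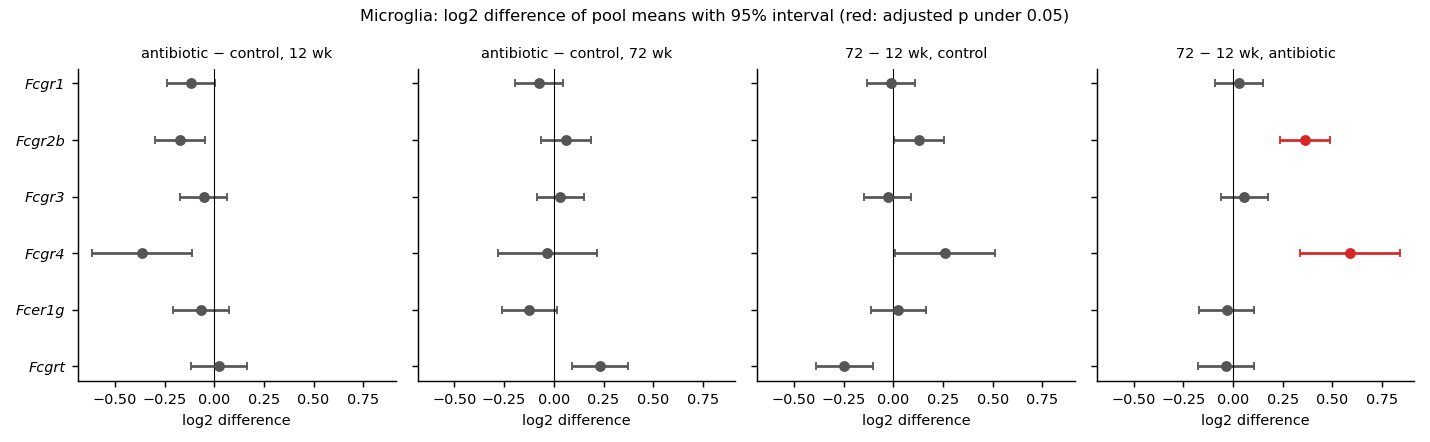
Log2 difference between groups in microglia (horizontal axis) for each gene with its 95% interval, for antibiotic minus control at each age and 72 minus 12 weeks in each arm, with adjusted p under 0.05 in red. Fcgr2b (0.36) and Fcgr4 (0.59) were called with age in the antibiotic pools, and no gene was called in the other 3 panels.

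Of 51 other genes of the Fc receptor pathway, 37 had enough RNA in microglia to be tested. With antibiotics over both ages 3 of 37 were called, 1 higher and 2 lower, with a median log2 difference of -0.06 against -0.01 over all genes. That is 8.11% of the list beside 5.4% of all genes, so the count is near the background. Inpp5d, which encodes the phosphatase SHIP1 that acts downstream of Fcgr2b, rose from 2.75 ± 0.0638 to 3.05 ± 0.104 in the young and from 2.86 ± 0.136 to 3.37 ± 0.193 in the aged pools (SD, n = 3 each). Its log2 difference was 0.19 (SE 0.04, adjusted p = 0.0122) over both ages and 0.23 (SE 0.06, adjusted p = 0.0357) in the aged. Ptpn6, which encodes another inhibitory phosphatase, SHP1, fell by 0.19 (SE 0.05, adjusted p = 0.0251). Lcp2, encoding the adaptor SLP-76, fell by 0.29 (SE 0.06, adjusted p = 0.00826). Inpp5d rose while Ptpn6 fell, both genes of the inhibitor list. None of the 6 kinases tested was called, and all 6 had a log2 difference below 0. Of all 37 genes only 9 had one above 0, and the share over all genes was not taken. In the young 0 of 37 genes were called, and in the aged 1 of 37, Inpp5d, or 2.70% beside 3.23% of all genes.

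With age, 2 of 37 pathway genes rose in controls and 3 of 37 were called in antibiotic pools, 2 higher and 1 lower. These are 5.41% and 8.11% of the list beside 2.66% and 6.15% of all genes, and with so few genes the counts say nothing particular to the list. B2m, the light chain that pairs with the Fcgrt product, was 8.82 ± 0.223 in 12-week controls and 11.4 ± 0.530 in 72-week controls, and 8.95 ± 0.326 against 12.0 ± 0.761 in the antibiotic pools. Its log2 difference was 0.36 (SE 0.07, adjusted p = 0.00394) in controls and 0.42 (SE 0.07, adjusted p = 0.000482) in antibiotic pools. Cybb, the catalytic subunit of the phagocyte NADPH oxidase, rose in controls from 0.0963 ± 0.0347 to 0.188 ± 0.0302, by 0.72 (SE 0.18, adjusted p = 0.0362). In antibiotic pools Lat2, an adaptor of the LAT family, rose by 0.28 (SE 0.07, adjusted p = 0.0287), and Fcrls, an Fc receptor-like gene typical of microglia, fell by 0.27 (SE 0.08, adjusted p = 0.0384). The microglial marker sum was also lower with age, 81.3 to 87.1 in young and 72.4 to 79.8 in aged pools. Its part in the fall of Fcrls was not tested. The calls on Cybb, Lat2, Fcrls, Ptpn6 and on Inpp5d in the aged were each lost when single pools were left out, as named in the closing section.

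In ILCs, Fcer1g fell with age in both arms. The 12-week controls held 17.6, 10.7 and 15.6 and the 72-week controls 7.82, 4.00 and 5.35, without overlap, a log2 difference of -1.37 (SE 0.19, adjusted p = 0.000519). It was the 1 member called of the 5 tested there, Fcgr4 being too low in ILCs to test, where 0.912% of 8335 genes were called. The 12-week antibiotic pools held 16.4, 14.9 and 15.3 and the 72-week antibiotic pools 7.06 and 7.60, a log2 difference of -1.08 (SE 0.22, adjusted p = 0.00893), where it was again 1 of 5 and 1.44% of genes were called. The aged antibiotic pool 2 was left out of the fit with 5 cells, so the second call rests on 2 aged antibiotic pools. Without aged antibiotic pool 1 the call was not kept, but that fit held 1 aged antibiotic pool. An exact two-sided permutation test of the 6 young against the 5 aged pools gave p = 0.00216, the smallest that its 462 arrangements allow.

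The makeup of the class differed in the same direction. Cells with a value for at least 1 of the NK markers Ncr1, Klrb1c and Eomes made up 68.8% to 90.0% of the ILCs in the 6 young pools and 32.3% to 42.5% in the 5 aged pools. Cells with ILC2 markers and no NK marker made up 17.4% of the ILCs at 12 weeks and 56.6% at 72 weeks, and their Fcer1g averaged 1.67 and 0.879. In cells with an NK marker, Fcer1g ran from 13.8 to 20.4 over the young pools (median 17.3) and from 7.62 to 18.3 over the aged pools (median 16.3), which overlapped. The aged values rest on 4 to 37 such cells per pool. The log2 difference in these cells was -0.32, with an exact two-sided permutation p of 0.171. The lowest aged value came from control pool 2, which held 87 of the 175 aged ILCs and a summed T cell marker level of 10.0, against at most 2.76 in the other pools. Without that pool the age difference in controls was -1.14 (adjusted p = 0.00140). The cells with an NK marker included cells that also had an ILC2 marker. Over all cells of an age, Fcer1g averaged 20.3 at 12 weeks and 13.3 at 72 weeks in those with NK markers only. In those with both kinds it averaged 15.3 and 10.6. Eomes was also read in CD8+ cells, at 0.879. The part of the makeup in the fall of Fcer1g was not tested. Fcgr3, the CD16 gene of NK cells, differed with age by -1.87 in the antibiotic pools (SE 0.51, adjusted p = 0.0756), which did not pass.

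**Figure D4:**
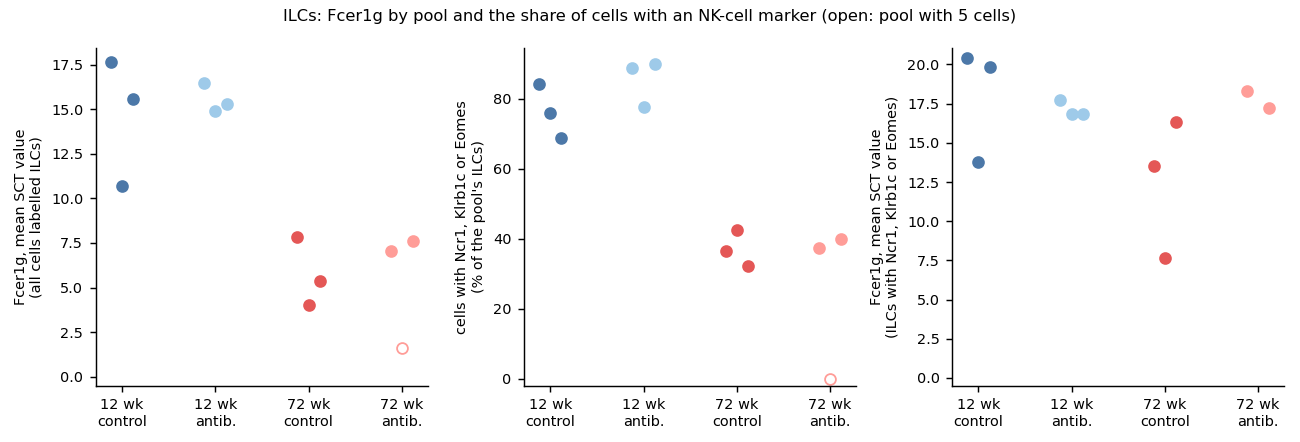
Fcer1g in all cells labelled ILCs (left, mean SCT value), the percent of those cells with an NK-cell marker (middle) and Fcer1g in the marker-positive cells alone (right), with 1 point per pool and an open point for the pool of 5 cells. Young and aged pools did not overlap in the left and middle panels and overlapped in the right panel.

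In the other 6 types tested, no member was called with age, where 0.33% of all gene tests were, and in the 7 types other than microglia none was called with antibiotics, where 0.0221% were. Ly6CLow cells had the values nearest the threshold. Their Fcgr2b was 2.17, 2.95 and 2.44 in 12-week controls and 1.49, 1.17 and 1.48 in 72-week controls, without overlap, a log2 difference of -0.85 (SE 0.21, adjusted p = 0.0727). Over all genes the median difference there was -0.21, 31.7% of the aged Ly6CLow cells against 4.38% of the young had under 2000 UMIs, and in the deeper cells the Fcgr2b difference was -0.40 (adjusted p = 0.955). The sum of the 4 ILC2 markers in these Ly6CLow control pools was 0.341 to 0.586 at 12 weeks and 2.13 to 5.0 at 72 weeks, and that of the 4 B cell markers 0.86 to 1.05 and 1.26 to 18, both without overlap. Their part in the result was not tested. Fcgrt in Ly6CLow differed by -1.03 (SE 0.28, adjusted p = 0.0979).

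B cells, for which Fcgr2b is the characteristic Fc gamma receptor, held Fcgr2b at 0.625, 0.609 and 0.458 in 12-week controls and 1.43, 0.931 and 1.42 in 72-week controls, without overlap. The log2 difference was 1.08 (SE 0.27, adjusted p = 0.127), and in the antibiotic pools it was 0.81 (SE 0.27, adjusted p = 0.989). The share of B cells with an Fcgr2b value was 29.5% at 12 weeks and 63.8% at 72 weeks, while in CD8+ cells it was 5.66% and 7.23%. Fcgr1, a gene of myeloid cells, also had a value in more of the aged B cells, 32.5% against 13.9%, and 23.5% of the aged against 5.74% of the young B cells had under 2000 UMIs. The sum of the 5 BAM markers, of the type highest in Fcgr2b, was 0.0435 to 0.219 in the B cells of 12-week controls and 0.379 to 3.98 in those of 72-week controls, without overlap, and 0.154 to 0.889 against 0 to 1.56 in antibiotic pools, with overlap. The part of these in the Fcgr2b difference was not tested. In BAM, Fcgrt was 1.87, 2.00 and 2.37 in 12-week controls and 2.78, 3.21 and 2.45 in 12-week antibiotic pools. It was 1.27, 1.73 and 1.94 in 72-week controls and 2.67, 2.27 and 1.86 in 72-week antibiotic pools, and the difference over both ages was 0.44 (SE 0.14, adjusted p = 0.425). The sum of the 5 microglial markers in BAM was 18.7 to 30.8 in 72-week control and 10.2 to 16.6 in 72-week antibiotic pools, without overlap, and 17.7 to 34 against 15.0 to 31.9 at 12 weeks. Its part in the Fcgrt difference was not tested. None of these passed the test. With simulated 2-fold antibiotic changes in aged mice, limma recovered 99% of changed genes in microglia and 1% in ILCs.

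At the protein level, the order of CD64 over the types depended on whether tags were taken as a share or per cell. As a share of all tags, CD64 was highest in microglia at both ages, 0.474% ± 0.0442 at 12 weeks and 0.441% ± 0.0247 at 72 weeks (SD, n = 6 pools each). BAM came next with 0.210% ± 0.0328 and 0.148% ± 0.0513, and no other type was above 0.0574%. Spearman's rho between the 9 types' Fcgr1 level and CD64 share was 0.72 at 12 weeks and 0.93 at 72 weeks, a description over types that share pools. With tags per cell it was 0.87 and 0.60. At 12 weeks BAM carried 8.39 ± 0.873 CD64 tags at 12 weeks against 6.28 ± 0.636 in microglia, with 4044 against 1325 tags of all kinds per cell. In the aged well all tags were fewer, and microglia carried 0.909 ± 0.113 CD64 tags of 206 tags per cell. Per cell they then came after B cells (1.12 ± 0.946), Ly6CHigh (1.08 ± 0.616), BAM (0.994 ± 0.308) and Ly6C+Ly6G+ cells (0.990 ± 1.07), which did not differ from microglia beyond their spread.

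Within microglia the 2 readouts were weakly tied cell by cell. Cells with an Fcgr1 value carried more CD64 tags than cells without in 11 of 12 pools, by 0.19 ± 0.114 on the log2 scale. They were also deeper in RNA, with a median of pool medians of 7129 against 5964 UMIs. As a percent of the cell's tags, CD64 was higher in 10 of 12 pools, by 0.09 ± 0.157.

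With age, the CD64 tag fell in microglia relative to the other tags, while Fcgr1 RNA did not pass the test. The edgeR log2 difference was -0.40 (SE 0.09, adjusted p = 0.00395) in controls, where 52.9% of the 34 antibodies were called, and -0.31 (SE 0.09, adjusted p = 0.0143) in antibiotic pools, where 50% were called. The shares themselves were 0.479%, 0.552% and 0.477% in 12-week controls and 0.460%, 0.458% and 0.467% in 72-week controls, without overlap. They were 0.467%, 0.419% and 0.449% in 12-week and 0.404%, 0.427% and 0.429% in 72-week antibiotic pools, which overlapped. The calls rest on the TMM scaling between wells, since with the tag total as library size the differences were -0.12 (adjusted p = 0.150) and -0.08 (adjusted p = 0.291). The antibiotic-pool call was also lost without young antibiotic pool 3 (adjusted p = 0.0527), aged control pool 1 (0.0529) or aged antibiotic pool 1 (0.0516).

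With antibiotics, the CD64 share in microglia was lower than in controls of the same age without overlap at both ages. This lack of overlap was not compared with that of the other antibodies. Alone it says little, since Fcgr3 RNA in young microglia also did not overlap while differing by only -0.05 (limma adjusted p = 0.801). The edgeR difference in the CD64 tag over both ages was -0.18 (SE 0.06, adjusted p = 0.257) and Fcgr1 RNA differed by -0.10 (SE 0.04, adjusted p = 0.176), so neither passed. DESeq2, run beside edgeR, gave -0.19 for the tag with an adjusted p of 0.0272. Over 8 types and 4 antibiotic contrasts edgeR called the CD64 tag in 0 of 32 tests, with 6 at an unadjusted p under 0.05, and DESeq2 in 1 of 32. Of all antibody tests in those contrasts, edgeR called 0.46%. Between 0 and 6 of the 34 antibodies had an unadjusted p under 0.05 in each type and contrast. In the 7 types other than microglia no age difference in CD64 was called, where 10.9% of antibody tests were.

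**Figure D5:**
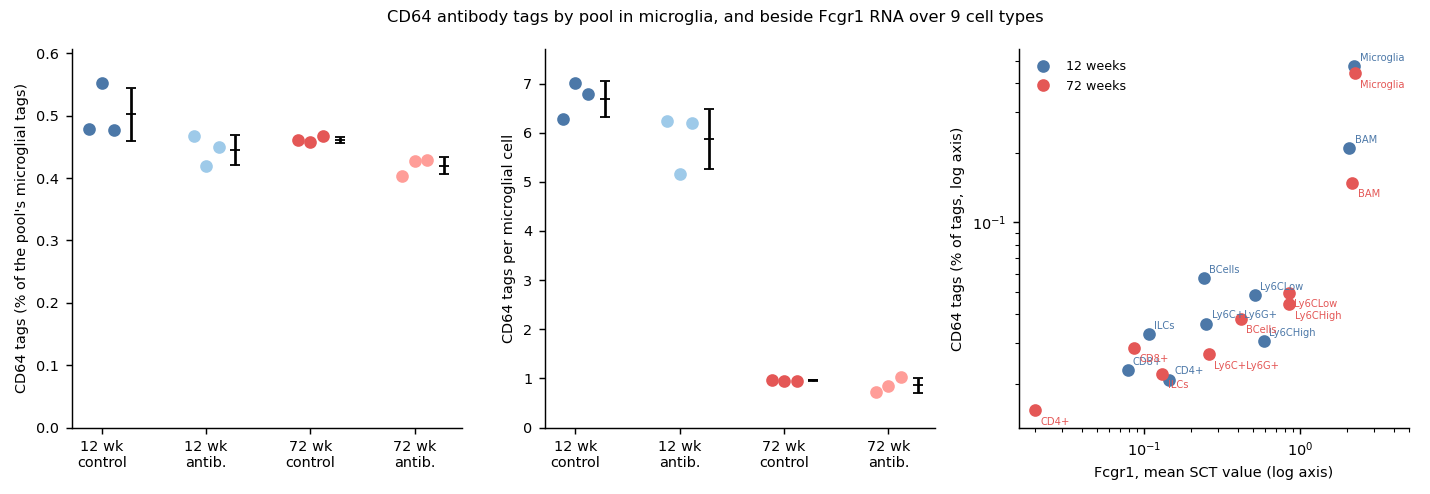
CD64 tags in microglia as a percent of all microglial tags (left) and per cell (middle) in each pool, with mean ± SD of 3 pools, and the CD64 percent against Fcgr1 RNA for 9 cell types at each age (right, both axes log). The tags per cell dropped from 6.28 to 0.909 between the wells while the percent moved from 0.474% to 0.441%, and microglia and BAM stood apart from the other 7 types.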

How the data were processed

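RNA and antibody tags were read in the same cells of 12 hashtag pools (3 per group). Per the submitters' processing notes, Cell Ranger 3.0.2, Seurat 3.0.1 and the mm10 build were named. The deposited RNA table holds a score, the SCTransform-corrected whole number per gene and cell. In all 13052 cells these numbers added up to the SCT total in the metadata, and in 62 also to the raw total. The deposited antibody table holds raw tag counts for 34 antibodies, and raw UMI counts per cell were read from the authors' metadata. The labels of type and hashtag are theirs too, and all cells were listed as singlets, so no doublet filter was added. Of the metadata, 35 columns stayed unused.

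For each type, the mean score per pool was taken as log2 after adding 0.05. Pools with fewer than 10 cells of a type and genes with a mean under 0.05 were left out, and limma 3.58.1 with a trended prior was fitted over 4 groups, with Benjamini-Hochberg adjustment over all genes and a threshold of 0.05. Tag sums of each pool went into edgeR 4.0.16 (quasi-likelihood, TMM). A type was tested where each group had at least 2 pools, which left out CD4+ and NK cells. Mouse pools came from separate animals. Both fits were tested on simulated data in which 2-fold changes were placed. For the antibiotic effect in aged mice, 99% of 200 changed genes were recovered in microglia (8759 tested) with 14 false calls, and 1% in ILCs (8335 tested). For age in controls, 100% of 4 changed antibodies were recovered in microglia (34 tested).

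All 6 members were described in every type and contrast. Pathway genes were named as up to 3 per list with the largest change among those called, and the 3 genes most like a member had the highest r. The members and lists were chosen with earlier results of these data known. Alternatives covered pseudocounts, filters, depth, scaling, DESeq2 1.42.0 and each pool left out. Leaving out shared barcodes and restricting ILCs to cells with an NK marker were chosen after seeing the data.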

Additional observations from a re-analysis of the deposited data

How the results depend on the processing

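The main analysis called 4 of 276 tests of member RNA, 9 pathway tests in microglia and 2 of 48 CD64 tests. The age rises of Fcgr2b and Fcgr4 in antibiotic microglia stayed past the threshold under all 10 other settings, with adjusted p up to 0.00699 and 0.0400, and with each pool left out, up to 0.00626 and 0.0426. Averaging log2(value + 1) over cells gave 11 member calls and 14 pathway calls. A prior variance without trend gave 2 and 4, and both ILC calls on Fcer1g were lost (adjusted p = 0.273 and 0.338). Requiring 20 cells per pool gave 2 member calls, since ILCs were then not tested. With pools of at least 5 cells the ILC difference in controls lost its call (adjusted p = 0.257), as the pool of 5 cells entered. Without a filter on low values 3 pathway calls were left. Leaving out 1 pool gave 3 to 7 member calls, with 7 without aged control pool 3, 6 to 8 pathway calls, and 1 to 2 CD64 calls, with 1 without aged control pool 1 or aged antibiotic pool 1. Without young antibiotic pool 3 the CD64 age call in antibiotic microglia was lost too. Ly6C+Ly6G+ cells then gained a CD64 call for antibiotics over both ages (log2 0.95), but that fit kept 1 young antibiotic pool. The counts over left-out pools include such fits, which fall below the 2 pools per group otherwise required. CD64 was called in 0 tests with the tag total as library size and in 12 with limma on the centred log ratio. Except where stated, the cause was not tested. The log2 size of the Fcgr4 rise ran from 0.05 to 0.83, being lowest for the mean of log2(value + 1). Among pathway genes, Inpp5d in the aged lost its call without any 1 of the 6 aged pools (adjusted p up to 0.165), Cybb without young control pools 1 or 3 or any aged control pool (up to 0.187), Fcrls without young control pool 1, young antibiotic pools 2 or 3 or aged antibiotic pools 1 or 2 (up to 0.193), and Lat2 without young or aged antibiotic pools 2 or 3 (up to 0.127). Ptpn6 lost it without young control pools 2 or 3, young antibiotic pools 1 or 2, aged control pool 2 or aged antibiotic pool 1 (up to 0.0743). Fcgrt in microglia passed for age in controls without aged antibiotic pool 3 (adjusted p = 0.0401), and Fcgr2b in Ly6CLow without aged control pool 3 or aged antibiotic pool 2 (0.0438 and 0.0486). Without aged control pool 3, Fcer1g and Fcgrt in Ly6CLow passed as well (0.0322 and 0.0115). Fcgr3 in ILCs passed for age in antibiotic pools without young control pool 2 or aged control pool 1 (0.0391 and 0.0416). Without aged antibiotic pool 3 its log2 difference was -2.65, in a fit that kept 1 aged antibiotic pool. In CD8+ cells Fcer1g passed for age in antibiotic pools without young antibiotic pool 2 (0.0499). Fcgr1 there differed by -2.38 with antibiotics in the young without young control pool 1, in a fit that kept 1 young control pool. Microglia or BAM were the highest type for 4 of 6 members, also in deeper cells, and for 5 with pools of at least 20 cells, where Fcer1g was highest in BAM. The higher CD64 share in cells with Fcgr1 RNA was seen in 11 pools per cell and 10 as a percent of tags. No value changed sign under any alternative. No paired analysis was possible because the pools of different groups come from different mice and share no number in the labels. Shallow aged cells and pools of few cells limit all types but microglia.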
